A study of Mus musculus with 2 samples.

Results

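The genes of this account encode enzymes that make and break down glucose, with the kinases that act on their flux. They were read in preparations of isolated proximal tubular (PT) cells, which also held markers of other cell types. The members are a list of 37 genes chosen by their function in these pathways, with earlier results of these data known. Of these, 33 were joined by gene symbol, each to a single probe set of the array. In all, 19505 genes were joined. Gpi1, Eno1, Pfkfb1 and Pfkfb2 were not joined and are not analysed here. Gene expression was measured on Clariom S mouse arrays, which read the level of each gene from labelled RNA bound to short probes, on 1 array of PT cells for each genotype, wild type and PT cell-specific KAT5 knockout (KAT5 KO). KAT5 is a lysine acetyltransferase that takes part in DNA repair. The KAT5 KO mice carried KAT5 flox/flox alleles and Cre recombinase under the γGT promoter, on a C57BL/6J background, and in the study γGT is described as active from S1 to S3 of the PT and strongest in S3. The labels call the other mice wild type, and for both groups they give male sex and an age of 8 weeks. PT cells were obtained from minced kidneys by removing cells that bear CD31, an endothelial antigen, and then selecting cells that bear Prominin1 with magnetic beads. Whether RNA of several mice was pooled is not given in the sources used here. With 1 array for each genotype there was no spread between animals, so no error and no p-value could be computed, and every value below compares these arrays rather than the genotypes.

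Levels are log2 values. A difference is the level on the KAT5 KO array minus that on the wild-type array, and a difference of 1 is 2-fold. Levels under 5.14, the 95th percentile of 1465 odorant, vomeronasal and taste receptor genes taken as silent in kidney, were raised to that background level, and a gene above it on only 1 array has a bound, written as at least N-fold. Kat5 itself was at 10.20 in wild type and 8.67 in KAT5 KO, 34.8% of the wild-type level. Of the genes above background on at least 1 array, 8.40% were lower by more than Kat5. Against the male sex on its label, the KAT5 KO array held 3 genes of the Y chromosome under background, Eif2s3y at 2.29, Uty at 3.42 and Kdm5d at 3.76, where wild type had 10.11, 9.84 and 7.69. The part of this mismatch in the differences below was not tested.

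Glycolysis and gluconeogenesis share most of their enzymes, which work in both directions, and differ at 3 irreversible steps. At these steps hexokinase, phosphofructokinase and pyruvate kinase drive glycolysis, whereas glucose 6-phosphatase, fructose bisphosphatase and the pair of pyruvate carboxylase and phosphoenolpyruvate carboxykinase drive gluconeogenesis. In the kidney, gluconeogenesis belongs to the PT, which burns fatty acids and makes glucose from lactate, glutamine and glycerol, while glycolysis is more active in the distal nephron. Enzymes of both pathways exist as isoforms from separate genes, so the arrays were read isoform by isoform.

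The bases before the transcription start of 4 members are shown. Pck1, G6pc and Fbp1 were the members furthest apart between the arrays on the higher side. Hk2, the inducible hexokinase, stands on the opposite side of the same pathway. It was not the member furthest apart on the lower side, which was Hk1 (-3.51, against -1.14 for Hk2). The sequences come from RefSeq on GRCm38.p6, cover 250 bases ending at the base before the start, and run 5′ to 3′ along the gene. Capitals mark 3 motifs searched on both strands: the cAMP response element TNACGTCA, GTTAAT, which the HNF1 factors bind, and the core of the hypoxia-inducible factor (HIF) site, ACGTG or GCGTG. A cAMP response element with C at its N also holds the HIF core on the opposite strand.
Pck1, chr2:173152823-173153072, plus strand: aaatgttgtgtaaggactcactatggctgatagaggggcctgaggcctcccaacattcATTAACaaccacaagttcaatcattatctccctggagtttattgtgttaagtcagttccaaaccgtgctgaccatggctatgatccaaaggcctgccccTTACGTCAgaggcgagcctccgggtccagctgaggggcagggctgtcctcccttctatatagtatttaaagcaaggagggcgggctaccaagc
G6pc, chr11:101367466-101367715, plus strand: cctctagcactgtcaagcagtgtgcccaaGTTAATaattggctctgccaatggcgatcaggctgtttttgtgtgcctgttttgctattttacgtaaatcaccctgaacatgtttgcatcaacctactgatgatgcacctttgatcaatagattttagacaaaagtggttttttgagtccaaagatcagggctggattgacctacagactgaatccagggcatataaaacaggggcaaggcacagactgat
Fbp1, chr13:62888283-62888532, minus strand: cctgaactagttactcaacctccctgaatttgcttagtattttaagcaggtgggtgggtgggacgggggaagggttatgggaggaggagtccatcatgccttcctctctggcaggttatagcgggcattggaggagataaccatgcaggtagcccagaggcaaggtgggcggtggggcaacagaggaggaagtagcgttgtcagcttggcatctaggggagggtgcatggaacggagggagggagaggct
Hk2, chr6:82774455-82774704, minus strand: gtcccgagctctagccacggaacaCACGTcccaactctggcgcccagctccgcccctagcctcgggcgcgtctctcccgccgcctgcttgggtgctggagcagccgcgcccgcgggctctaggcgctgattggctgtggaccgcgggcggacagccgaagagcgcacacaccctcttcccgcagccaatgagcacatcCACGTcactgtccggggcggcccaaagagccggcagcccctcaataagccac
Pck1 held the cAMP response element 93 bases and the HNF1 motif 192 bases before its start, G6pc held the HNF1 motif at 221, and Hk2 held HIF cores at 226 and 52. Fbp1 held none of these letters in its window. Of 32851 promoter windows of this length, 2.52% held the cAMP response element, 6.43% the HNF1 motif and 38.6% the HIF core. Of the 37 members, 2 held the cAMP response element in at least 1 of their windows (Pck1 and Ldha), 4 the HNF1 motif (Pck1, G6pc, Khk and Pfkfb1) and 29 the HIF core. Counted by window, as the shares over all promoters are, 2, 4 and 39 of the members' 58 windows held these motifs. A match describes letters and not a bound site.

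On the KAT5 KO array most enzymes particular to gluconeogenesis were higher, most of those that drive glycolysis were lower, and 4 of the shared enzymes were higher to a smaller degree. Of the 37 members, 14 were 2-fold or more higher, 10 were 2-fold or more lower, 7 lay within 2-fold, 2 were under background on both arrays and 4 were not joined. Over all 19505 genes joined, 10.6% were higher and 9.50% lower by this rule, and over the 11635 genes above background on at least 1 array the shares were 17.8% and 15.9%. The members' counts correspond to 42.4% and 30.3% of the 33 joined, so both directions held more members than the background did. The median difference was 4.34 (20.3-fold) over the 7 genes of gluconeogenesis. It was 0.01 over the 17 joined genes of glycolysis, the shared steps included, and -0.05 over all genes above background. The median over glycolysis covers differences from -3.51 to 3.17 and describes no single enzyme. PT markers were also higher on the KAT5 KO array (median 6.53 over 25 markers), and in such bulk RNA fewer cells of a type and less RNA per cell cannot be told apart.

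**Figure D1:**
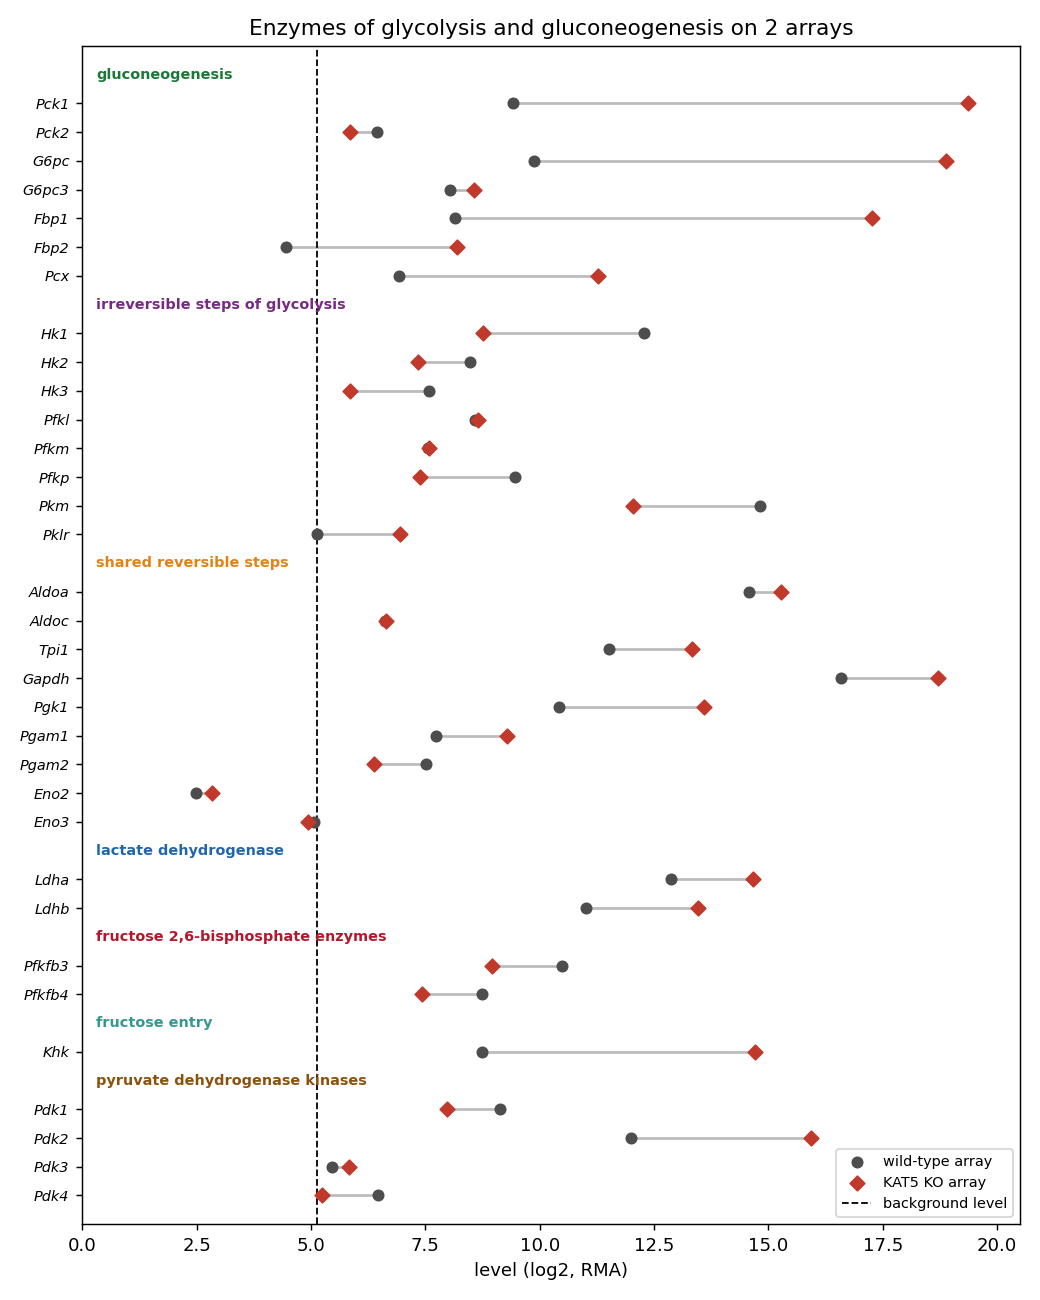
Level (log2, RMA) of each of the 33 joined members on the wild-type array (grey circles) and the KAT5 KO array (red diamonds), grouped by role, with the background level of 5.14 as a dashed line. Each point is 1 array. Pck1, G6pc and Fbp1 reach 17.26 to 19.37 on the KAT5 KO array from 8.15 to 9.89 on the wild-type array.

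Of the 7 genes particular to gluconeogenesis, 5 were 2-fold or more higher, 0 lower and 2 within 2-fold. Pck1, cytosolic phosphoenolpyruvate carboxykinase, which turns oxaloacetate into phosphoenolpyruvate, was at 9.42 in wild type and 19.37 in KAT5 KO, 990-fold higher (log2 difference 9.95). Its level on the KAT5 KO array was near the ceiling of the values, 19.93. Pck2, the mitochondrial isoform, was at 6.45 and 5.84, a log2 difference of -0.61. The gap between the differences of these isoforms was 10.56 on the log2 scale.
Fbp1, the fructose bisphosphatase of liver and kidney, was at 8.15 and 17.26, 552-fold higher (9.11). Fbp2, the isoform of muscle, was under background in wild type (4.45) and at 8.19 in KAT5 KO, at least 8.26-fold higher. The genes are close paralogs, and binding of Fbp1 RNA to the Fbp2 probes was not tested.
G6pc, the catalytic subunit of glucose 6-phosphatase that releases free glucose from liver and kidney, was at 9.89 and 18.88, 511-fold higher (9.00). G6pc3, the isoform found in most tissues, was at 8.04 and 8.57 (0.53). Pcx, pyruvate carboxylase, which feeds oxaloacetate into the pathway from mitochondria, was at 6.93 and 11.28, 20.3-fold higher (4.34). For the Pck and G6pc pairs, therefore, the isoform known from gluconeogenic organs was the one further apart between the arrays, and for the Fbp pair the difference of Fbp2 is a bound. Ranked among the 11635 genes above background, with bounds taken at their value, Pck1 came 5th, Fbp1 13th and G6pc 14th from the highest difference, Pcx 281st and Fbp2 496th.

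The enzymes of the irreversible steps of glycolysis were mostly lower on the KAT5 KO array, with 5 of 8 genes 2-fold or more lower, 1 higher and 2 within 2-fold (median -1.43). All 3 hexokinases, which trap glucose as its phosphate, were lower. Hk1, the widely expressed isoform, was at 12.27 in wild type and 8.77 in KAT5 KO, 11.4-fold lower (log2 difference -3.51), and it was the 44th lowest of the genes above background. Hk2, the insulin-responsive isoform of muscle and fat, was at 8.49 and 7.35 (-1.14). Hk3, a hexokinase of leukocytes, was at 7.58 and 5.85 (-1.73). The wild-type array thus held the higher level of each hexokinase, and the difference of Hk1 minus that of Hk3 was -1.78 and minus that of Hk2 was -2.37 on the log2 scale.
The phosphofructokinases, whose step commits sugar to glycolysis, did not lie together. Pfkp, the platelet-type subunit, was at 9.46 and 7.39, 4.21-fold lower (-2.07). Pfkl, the liver type, was at 8.58 and 8.65 (0.07), and Pfkm, the muscle type, was at 7.57 and 7.58 (0.01). Only Pfkp of the 3 subunits was apart by 2-fold, 2.14 below Pfkl on the log2 scale.
The pyruvate kinases, which form pyruvate and ATP at the end of the pathway, lay on opposite sides. Pkm, from which most tissues splice the M1 and M2 forms, was at 14.81 and 12.04, 6.82-fold lower (-2.77). Its probe set was read as a gene, so these forms cannot be told apart here. Pklr, the isoform of liver and red blood cells, was at 5.14 and 6.94, at least 3.49-fold higher, where the wild-type value lay at the background level itself.

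**Figure D2:**
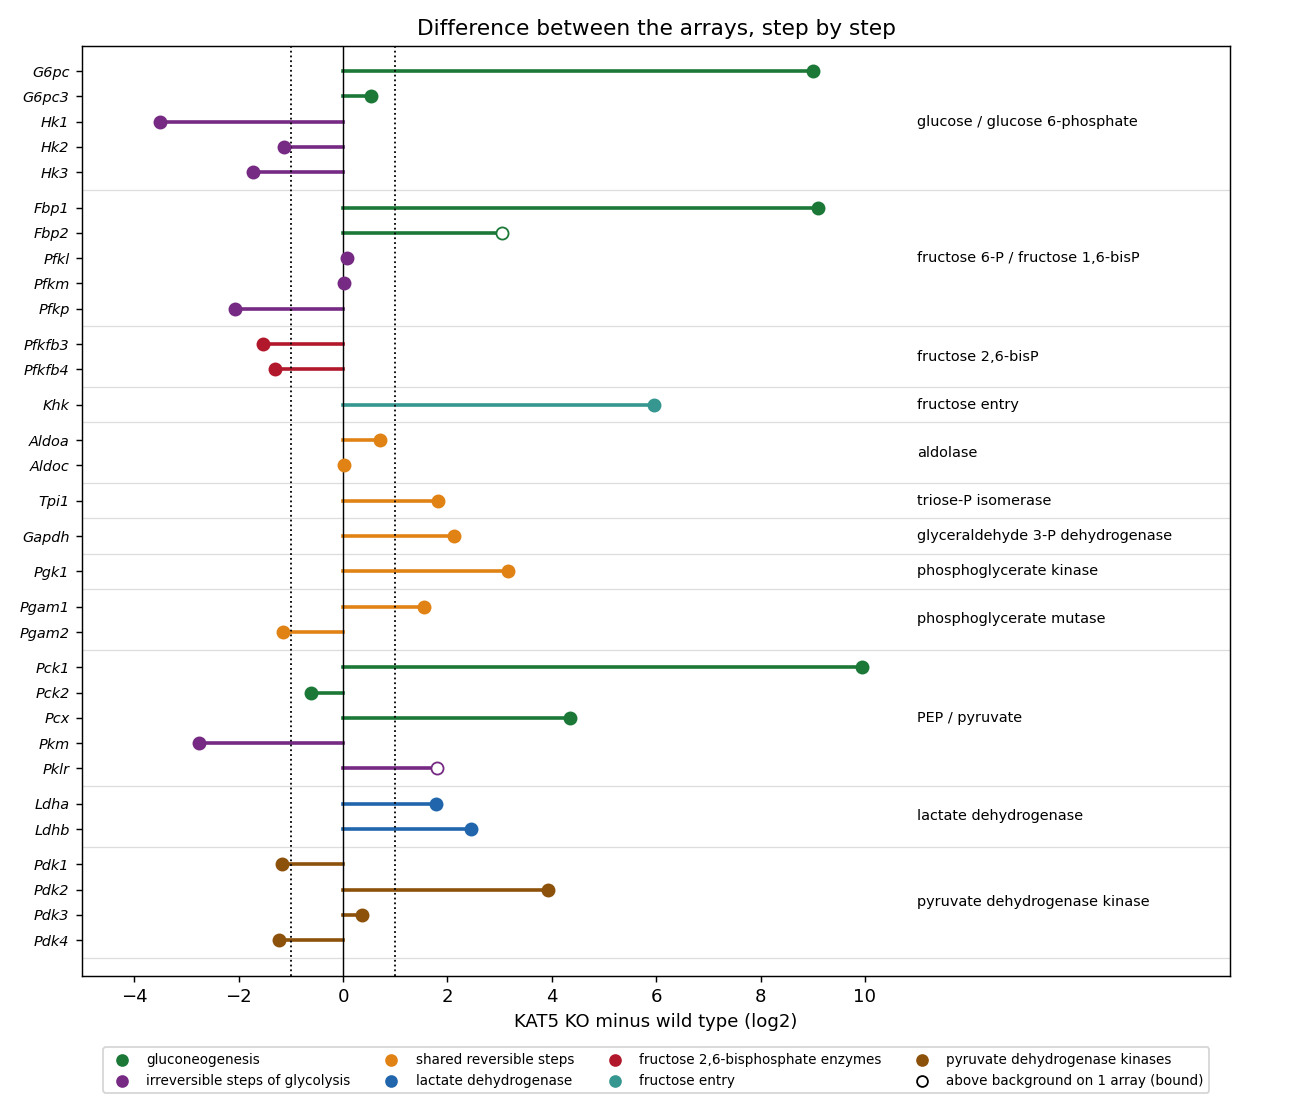
Difference between the arrays (KAT5 KO minus wild type, log2) of the 31 members above background, ordered along the pathway and coloured by role, with 2-fold as dotted lines. Open circles are bounds for genes above background on 1 array only. At the steps of glucose phosphate and fructose bisphosphate the phosphatases G6pc (9.00) and Fbp1 (9.11) lie opposite the kinases Hk1 (-3.51) and Pfkp (-2.07).

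The enzymes of the reversible steps, which serve both pathways, were higher where they differed by 2-fold, with the exception of Pgam2. Of 11 such members, 4 were higher, 1 was lower, 2 lay within 2-fold, 2 were under background and 2 were not joined. Pgk1, phosphoglycerate kinase, was at 10.43 in wild type and 13.60 in KAT5 KO, 8.99-fold higher (log2 difference 3.17). Gapdh, glyceraldehyde 3-phosphate dehydrogenase, was at 16.59 and 18.71, 4.35-fold higher (2.12). The study lists mouse GAPDH among its RT-PCR primers, and its RT-PCR used kidney cortex as well as isolated PT cells. On these arrays the Gapdh level was not equal between the preparations, and its level in the RT-PCR samples was not examined here. Tpi1, triose phosphate isomerase, was at 11.51 and 13.33 (1.82), and Pgam1, the widely expressed phosphoglycerate mutase, was at 7.73 and 9.28 (1.55).
Aldoa, the aldolase of muscle and most other tissues, was at 14.57 and 15.27, within 2-fold (0.70). Aldoc, the aldolase of brain, was at 6.62 and 6.63 (0.01). Pgam2, the mutase of muscle, was at 7.52 and 6.38, 2.22-fold lower (-1.15). The muscle enolase Eno3 (5.07 and 4.94) and the neuronal enolase Eno2 (2.49 and 2.84) were under background on both arrays. Gapdh, Pgk1, Tpi1, Aldoa, Pgam1 and Ldha are genes with processed pseudogene copies, and what these copies add to the probe sets was not tested.

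Both lactate dehydrogenase subunits were higher on the KAT5 KO array. Ldhb, the subunit of heart and other oxidative tissues, was at 11.01 and 13.47, 5.50-fold higher (2.46), and Ldha, the subunit of muscle, was at 12.88 and 14.67, 3.45-fold higher (1.79). The difference of Ldhb exceeded that of Ldha by 0.67 on the log2 scale, which is under 2-fold.
The Pfkfb genes encode bifunctional enzymes that set the level of fructose 2,6-bisphosphate, the strongest activator of phosphofructokinase and an inhibitor of fructose bisphosphatase. Of 4 such members, the 2 joined were lower, and Pfkfb1 and Pfkfb2 were not joined. Pfkfb3, the isoform with the strongest kinase activity, was at 10.49 and 8.96, 2.89-fold lower (-1.53), and Pfkfb4 was at 8.74 and 7.43, 2.47-fold lower (-1.30).
Khk, ketohexokinase, which starts the breakdown of fructose in liver, intestine and PT, was at 8.75 and 14.70, 61.9-fold higher (5.95). It was the 133rd highest of the genes above background and the 4th largest difference among the members.

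The pyruvate dehydrogenase kinases, which switch off the entry of pyruvate into the citrate cycle, were split by isoform. Pdk2, the most widely expressed isoform, was at 12.01 in wild type and 15.94 in KAT5 KO, 15.3-fold higher (log2 difference 3.93). Pdk1, an isoform induced by hypoxia, was at 9.13 and 7.97 (-1.17), and Pdk4, which fasting induces in muscle and kidney, was at 6.47 and 5.25 (-1.22). With a background level from the median of all probe sets or the 99th percentile of receptor genes, Pdk4 came within 2-fold (-0.88 and -0.58). Pdk3 was at 5.47 and 5.83 (0.36). Pdk2 was thus the only kinase of the 4 that was 2-fold or more higher, and Pdk3 and the KAT5 KO value of Pdk4 lay close to the background level.

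**Figure D3:**
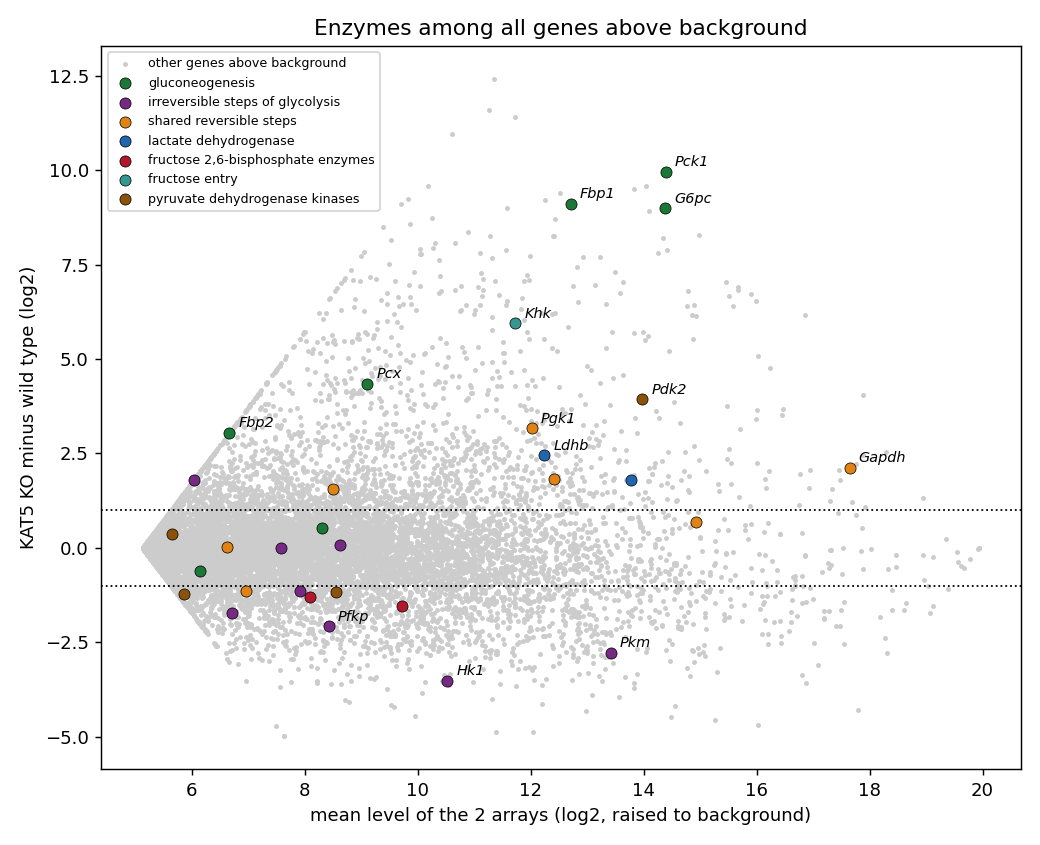
Difference between the arrays (KAT5 KO minus wild type, log2) against the mean level of both arrays (log2), with 2-fold as dotted lines. Levels under background were raised to it before the mean was taken. Shown are the 11635 genes above background on at least 1 array (grey) and the 31 members among them (coloured by role). Members more than 2 apart on the log2 scale are named, and Pck1, Fbp1 and G6pc lie at the upper edge of the cloud.

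Other genes of sugar, pyruvate and substrate metabolism were read beside the members. Of 21 sugar enzymes outside the members, 8 were 2-fold or more higher, 0 lower, 3 within 2-fold, 6 under background and 4 not joined. Slc37a4, the transporter that brings glucose 6-phosphate to G6pc in the endoplasmic reticulum, was at 8.34 and 14.77 (6.43). Tkfc, which acts after Khk in the breakdown of fructose, was at 6.81 and 12.02 (5.21), and Galm, which interconverts the anomers of glucose, was at 9.33 and 13.63 (4.30).
Of 13 genes that supply substrates of gluconeogenesis, 7 were higher, 0 lower, 1 within 2-fold, 1 under background and 4 not joined. Gpd1, which links glycerol to the triose phosphates, was at 8.09 and 14.79 (6.69), the lactate transporter Slc16a1 was at 6.11 and 11.77 (5.66), and the mitochondrial dicarboxylate carrier Slc25a10 was at 9.20 and 14.41 (5.21).
Of 10 genes that bring pyruvate into mitochondria and the citrate cycle, 6 were higher, 1 lower, 2 within 2-fold and 1 not joined. Pdha1, a subunit of pyruvate dehydrogenase, was at 8.21 and 10.88 (2.67). Pdp2 and Pdp1, the phosphatases that reverse the action of the Pdk kinases, lay on opposite sides, Pdp2 at 6.62 and 8.98 (2.36) and Pdp1 at 7.82 and 6.35 (-1.48). These lists had medians of 0.00, 1.90 and 1.46 on the log2 scale over their joined genes, where the first counts its 6 genes under background as 0.

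On the KAT5 KO array all but 1 of 25 PT markers were higher, and most markers of the distal nephron, endothelium and myeloid cells were lower. The makeup of the preparations and the genotype therefore cannot be told apart. Of 25 PT markers, 24 were 2-fold or more higher and 1, the androgen-dependent Kap (-4.46), was lower, with a median difference of 6.53, and their summed level was 16.00 in wild type and 22.50 in KAT5 KO on the log2 scale. On the wild-type array Slc5a8 alone of these markers was under background. Lists by segment, which share genes with this list, differed. All 9 markers of S1 and S2 were higher. Of 9 markers of S3, 4 were higher, 1 lay within 2-fold, 3 were under background on both arrays and 1 was not joined. Of the 33 members joined, 3 (Pck1, Fbp1 and G6pc) were higher by more than the median of the 25 PT markers. The other 11 higher members were higher by less. PT markers with high wild-type levels had less room below the ceiling of the values than these 3 members. Slc34a1 lay at that ceiling on the KAT5 KO array (13.77 and 19.93, 6.16), so its difference may be a bound. Slc2a2, whose difference is the median, was at 12.73 and 19.26. The differences of single PT markers reached 9.57 (Slc22a8) and 9.24 (Slc22a6), above those of Fbp1 (9.11) and G6pc (9.00). Only Pck1 (9.95) exceeded every one of the 25.
Of 11 loop of Henle markers, 9 were lower, 1 was higher (Cldn10, 2.47) and 1 was under background, with a median of -2.99 and a summed level of 20.75 and 17.28. Intercalated cell markers (8 of 9 lower, median -2.96, summed level 13.50 and 10.36), principal cell markers (5 of 7, -2.94, 13.83 and 10.58) and markers of the distal convoluted tubule (5 of 7, -1.45, 18.22 and 16.42) were lower as well. Beside these medians, the members furthest below 0 were Hk1 (-3.51) and Pkm (-2.77). Single markers of these lists were lower still, down to -4.55 (Slc12a1, loop of Henle) and -4.08 (Hsd11b2, principal cells).
Of 11 myeloid markers, 10 were lower and 0 higher, with a median of -1.82, and none was under background on either array, their levels being 12.81 to 18.12 in wild type and 11.04 to 16.77 in KAT5 KO. Their summed level was 19.97 and 18.43. Of 9 endothelial markers 6 were lower (median -1.11, summed level 10.82 and 8.97). The part of any of these cell types in the members' differences was not tested.

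**Figure D4:**
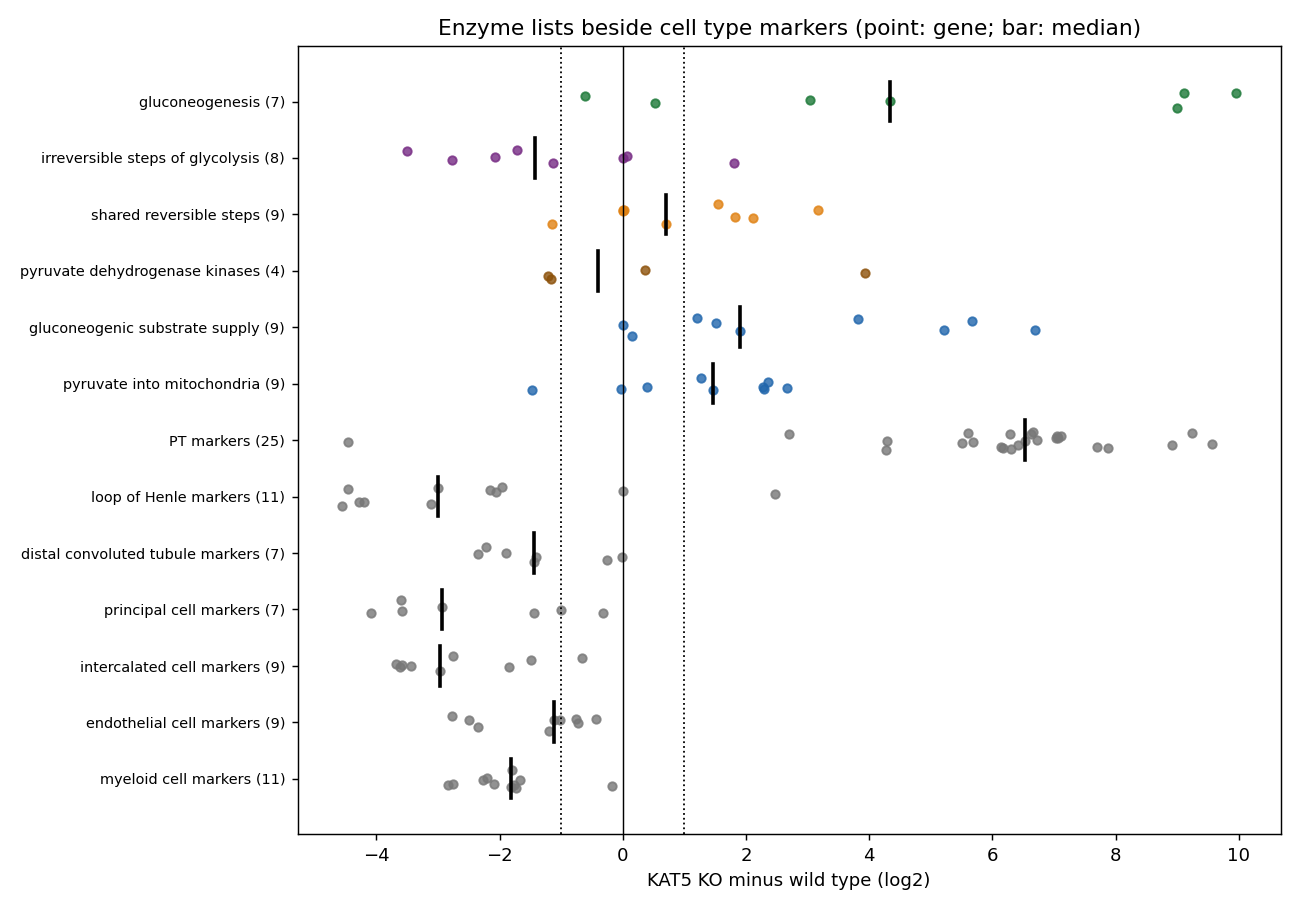
Difference between the arrays (KAT5 KO minus wild type, log2) of each joined gene (points, spread vertically for legibility) in 4 lists of members, 2 lists of pathway genes and 7 lists of cell type markers, with the number of genes in brackets, the median as a bar and 2-fold as dotted lines. The medians are 4.34 for gluconeogenesis, -1.43 for the irreversible steps of glycolysis, 6.53 for PT markers and -1.82 for myeloid cell markers.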

How the data were processed

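RNA of isolated PT cells was hybridised to Clariom S mouse arrays, 64 ng per array, with 1 array for wild-type and 1 for KAT5 KO mice. The authors processed the arrays by RMA in the Transcriptome Analysis Console, whose versions are not given in the sources used here, and deposited log2 levels of 28846 probe sets. RMA corrects background, normalizes the arrays to each other and summarises the probes. The highest level on these arrays was 19.93. Whether the processing stretched or compressed large differences was not tested, so the large folds above hold on this scale only. These log2 levels entered as deposited, grouped by the genotype in the labels. Of the probe sets, 19572 carried 1 gene symbol in the platform annotation, 0 carried several and 9274 carried none and were left out, and levels were averaged over the probe sets of a gene.

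The background level (5.14) was taken from the receptor genes, as their 95th percentile on whichever array gave more. Their own difference had an SD of 0.55, which describes dim probe sets and not the error of the members. No test was made, since each genotype has 1 array, and calls are by size alone, at 2-fold. The number of arrays limits the precision. The members and lists were chosen with earlier results of these data known. All members are named, and of each other list at most the 3 genes with the largest difference in each direction among those 2-fold apart, with Slc37a4, the largest of its list, named in any case. Slc5a8, Slc34a1 and Slc2a2 were named after their values were seen. Alternatives changed the scaling, background level, probe set, threshold, list and summary. The steps were run on simulated arrays with known differences. These had fewer changed genes and less noise than the data and no ceiling, so the run checks the code and not the results. Python 3.11.15, numpy 2.4.6, pandas 2.3.3, statsmodels 0.14.6 and matplotlib 3.10.9 were used.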

Additional observations from a re-analysis of the deposited data

How the results depend on the processing

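The counts of members were 14 to 15 higher and 9 to 11 lower under every alternative of scaling, background level and probe set and at 1.5-fold, and 13 higher and 4 lower at 3-fold. Means instead of medians moved gluconeogenesis to 5.05 and its gap to glycolysis to 5.12 from 4.34. With the irreversible steps alone, the median of glycolysis was -1.43 and the gap 5.78. Aldoa passed 2-fold once the trend on level was removed (1.11), and Pdk4 came within 2-fold with a background level from the median of all probe sets (-0.88) or the 99th percentile of receptor genes (-0.58), where Pdk3 came under background. The bounds of Fbp2 and Pklr fell to 2.29 and 1.05 with the 99th percentile, and without a background level the plain difference of Fbp2 was 3.73. Over all alternatives the difference of Pklr ran from 1.05 to 1.91. No joined member that was 2-fold apart reversed under an alternative. The median difference of all genes, without a background level, was -0.11 as deposited and 0.016 with the trend removed. Leaving out genes under background was chosen after seeing the data and left the median of glycolysis at 0.01. No paired analysis was possible because each genotype has 1 array, which also prevents leaving out an array.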

Other observations

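Regulators of the genes of both pathways lay on both sides of the comparison, as did all genes above background (17.8% higher and 15.9% lower). For the regulators of gluconeogenic genes the shares were 21.4% and 28.6% of those joined, and with so few genes no departure from the background is claimed. Of 16 regulators of gluconeogenic genes, 3 were 2-fold or more higher on the KAT5 KO array, 4 lower, 7 within 2-fold and 2 not joined (median -0.52 on the log2 scale over the 14 joined). Hnf4a, a nuclear receptor of PT and liver identity that is also on the list of PT markers, was at 7.87 in wild type and 14.17 in KAT5 KO (6.30), Ppara, the nuclear receptor of fatty acid breakdown, was at 5.68 and 11.11 (5.43), and the insulin receptor Insr was at 11.40 and 12.49 (1.09). Lower were Irs2 (9.71 and 8.04, -1.67) and Irs1 (6.67 and 5.27, -1.40), which pass on the insulin signal, and Creb1 (9.94 and 8.57, -1.37), the factor that binds the cAMP response element.

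Of 12 regulators of glycolytic genes, 2 were higher, 3 lower, 6 within 2-fold and 1 under background (median -0.32). Mlxipl, the sugar-responsive factor ChREBP, was at 6.28 and 10.79 (4.51) and Prkaa2, a catalytic subunit of AMP-activated kinase, at 10.54 and 13.84 (3.30). Txnip, which restrains glucose uptake, was at 18.82 and 16.27 (-2.54), Mlxip at 10.46 and 8.76 (-1.70) and Myc at 12.02 and 10.47 (-1.55). Of 12 HIF targets that are not enzymes of sugar metabolism, 1 was higher, 2 lower, 8 within 2-fold and 1 under background (median 0.12). Ndrg1 was at 15.85 and 19.90 (4.06), whereas the glucose transporter Slc2a1 was at 13.52 and 11.90 (-1.62) and the vasodilator peptide Adm at 6.78 and 5.69 (-1.08). Over all genes above background, 17.8% were higher and 15.9% lower. The shares were 16.7% and 25% for the regulators of glycolytic genes and 8.33% and 16.7% for the HIF targets. With so few genes, no departure from the background is claimed for these lists either.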
